A study of Mus musculus with 11 samples.

Results

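Notch signalling passes between touching cells: a ligand on one cell binds a Notch receptor on its neighbour, the receptor is cut, and its inner part enters the nucleus and switches on target genes together with the DNA-binding protein RBPJ. In skin the pathway is known for its part in the commitment of keratinocytes to differentiate and in the upkeep of the hair follicle. The genes described here were the ligand genes Dll1, Jag1 and Jag2, the receptor genes Notch1, Notch2 and Notch3, the target genes Hes1, Hey1 and Heyl, and Dtx1, which codes for a Deltex protein that binds the inner part of Notch receptors. All probe sets whose platform annotation gives exactly 1 gene symbol, that of 1 of these 10 genes, were taken. They were 19 of the 34945 probe sets with 1 symbol, in a table of 45101.

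Keratinocytes had been isolated from dorsal skin of K5-myrAkt(L84) mice, which express an activated, myristoylated form of Akt from the keratin 5 promoter, a promoter of basal keratinocytes. The cells were parted with magnetic beads and an antibody against CD34, a surface marker of follicle bulge stem cells, into CD34+ cells (5 arrays) and CD34- cells (6 arrays). Both groups carry the transgene, no array of other mice was analysed here, and neither age, hair cycle stage nor number of animals is given in the labels. In the labels' cell type field follicle stem cells are named for the CD34- group as well, while the series' own design text calls it only CD34- cells. Whether the arrays came from separate mice is not stated, so p-values here measure only how far these samples spread, which may be technical.

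Cd34 itself checked the sort: its log2 signal averaged 11.83 ± 1.17 (SD, n = 5) in CD34+ and 4.20 ± 1.57 (SD, n = 6) in CD34- cells, without overlap. Of 8 bulge markers 5 were called higher and 1 lower in CD34+ cells, where 11.6% of all tested genes were called higher and 10.5% lower by their brightest probe set. RNA shortening raises the ratio of the 3-prime to the 5-prime actin control, and this ratio (log2) spanned 2.91 to 5.25 in the CD34+ group and 2.19 to 2.76 in the other. It was highest on CD34+ array 1 (5.25), followed by CD34+ arrays 2 (4.56) and 3 (3.97), so the members' results are also given with this ratio as a covariate and for CD34+ arrays 4 and 5 alone. Every CD34+ array, 4 and 5 included, had a higher ratio than every CD34- array. The fit with the covariate therefore cannot fully tell the ratio and the group apart, whether a call is kept or lost there. In bulk samples, fewer cells of a type and less RNA per cell cannot be told apart.

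In brief, Hey1 and Dtx1 were higher and Dll1 and Jag2 lower in CD34+ cells, and no receptor probe set passed the test. The Dtx1 call was lost in 9 of the 25 alternative settings run on it. With the actin ratio as a covariate no member was called in either direction. The dimmer Jag2 probe set was not called in the main fit (log2 difference -0.68, limma adjusted p = 0.125). Hey1 was 3.0-fold higher, Dll1 was 2.4-fold lower and Jag2 was 2.15-fold lower on their brightest probe sets. The measured unit was the deposited MAS5 signal (log2), and every difference is CD34+ minus CD34-. The median signal of an array was 6.71 to 7.23 in the CD34+ group and 6.36 to 6.51 in the CD34- group, without overlap. Of the 19 probe sets, 15 lay above the dimmest 40% of 1-symbol probe sets and were tested, at least 1 for each gene. With limma and Benjamini-Hochberg adjustment over all 20967 probe sets tested, 2 were called higher and 2 lower at an adjusted p under 0.05, and 11 were not called. Over all tested probe sets 11.0% were called higher, 9.77% lower and 20.7% in either direction, so the share called among the members, 4 of 15, is near the background. The median log2 difference (CD34+ minus CD34-) was 0.02 for the 15 and 0.02 for all tested probe sets. The arrays of the groups did not overlap for 5 of the 15, against 13.4% of all tested probe sets.

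**Figure D1:**
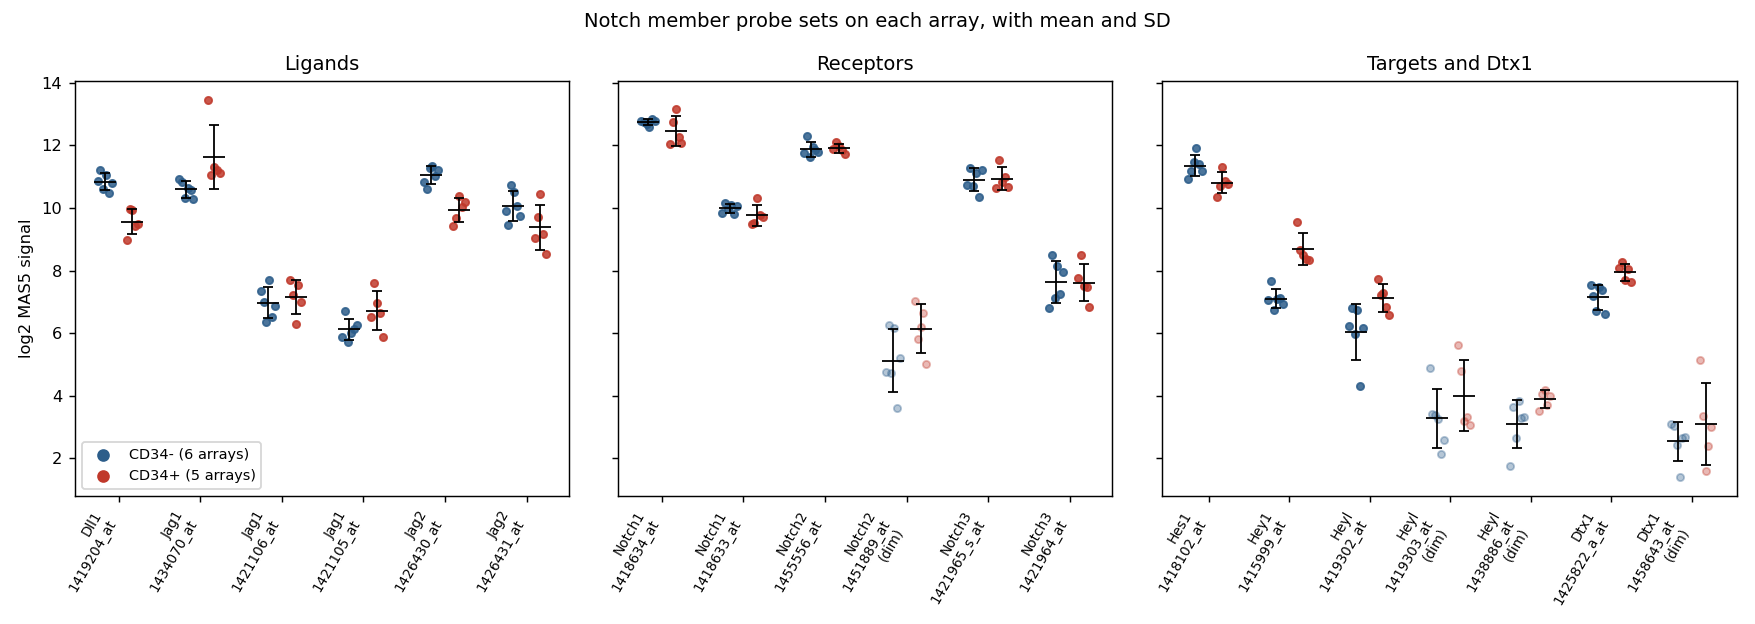
Log2 MAS5 signal of the 19 member probe sets (x axis) on each array (points), with group mean and SD (bars): CD34- in blue (6 arrays), CD34+ in red (5 arrays), and the 4 dim, untested probe sets in pale colours. The groups stand apart for Dll1, Jag2 1426430_at, Hey1, Dtx1 1425822_a_at and Jag1 1434070_at, where CD34+ array 1 lies far above the rest at 13.45.

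The ligand gene Dll1 codes for Delta-like 1, which basal keratinocytes are known to present. Its single probe set (1419204_at) had log2 signals of 8.98, 9.98, 9.92, 9.44 and 9.50 on CD34+ arrays 1 to 5. In CD34- cells it ranged from 10.47 to 11.22, with a median of 10.83. Every CD34+ array lay below every CD34- array. The means were 9.56 ± 0.41 (SD, n = 5) and 10.83 ± 0.27 (SD, n = 6), a log2 difference of -1.27 (SE 0.19, limma adjusted p = 7.29e-04). With any 1 array left out the difference was -1.38 to -1.13 and the call was kept. Once the actin ratio entered as a covariate the difference was -1.17 but was not called (adjusted p = 0.11), and with CD34+ arrays 4 and 5 alone it was -1.37 (adjusted p = 7.39e-04).

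Jag2 codes for the ligand Jagged 2 and was measured by a pair of probe sets. The brighter, 1426430_at, had log2 signals of 9.43, 9.67, 10.39, 10.02 and 10.18 on CD34+ arrays 1 to 5. In CD34- cells it ranged from 10.59 to 11.33, with a median of 11.11. The groups did not overlap, and the smallest gap was that between CD34+ array 3 and CD34- array 2. CD34+ minus CD34- gave -1.10 (log2, SE 0.19, limma adjusted p = 0.00176), which was kept as a call with any 1 array left out (-1.22 to -0.98). Once the actin ratio entered as a covariate it was -0.68 (adjusted p = 0.301), and with CD34+ arrays 4 and 5 alone -0.94 (adjusted p = 0.00807). The other Jag2 probe set, 1426431_at, had signals of 9.05, 9.71, 10.44, 9.17 and 8.53 on CD34+ arrays and 9.45 to 10.72 on CD34- arrays, so the groups overlapped. It was not called (-0.68, SE 0.31, adjusted p = 0.125), but without CD34+ array 3 it was (-0.94, adjusted p = 0.0258). The differences of this pair of probe sets were not shown to differ from each other (-0.43, exact two-sided permutation p = 0.212 over arrays, n = 5 and 6).

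Jag1 codes for the ligand Jagged 1, and none of its 3 probe sets was called. The brightest, 1434070_at, had log2 signals of 13.45, 11.06, 11.31, 11.21 and 11.10 on CD34+ arrays 1 to 5 and 10.27 to 10.94 on CD34- arrays, with a median of 10.61. All CD34+ arrays lay above all CD34- arrays, and CD34+ array 1 was the highest by a wide margin. The probe set differed by 1.03 (log2, SE 0.35, limma adjusted p = 0.051) and narrowly missed the threshold. Without CD34+ array 1 it was smaller, and it was called (0.57, adjusted p = 0.0139). Its adjusted p over all 26 alternative settings ranged from 0.0139 to 0.992, with 11 of them under the threshold. Once the actin ratio entered as a covariate the difference was -0.02, and with CD34+ arrays 4 and 5 alone it was 0.56 (adjusted p = 0.0582).

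The dimmer Jag1 probe sets overlapped between the groups. That of 1421106_at ranged from 6.30 to 7.69 on CD34+ arrays and from 6.37 to 7.69 on CD34- arrays (difference 0.17, SE 0.31, adjusted p = 0.714). That of 1421105_at ranged from 5.88 to 7.59 and from 5.73 to 6.70 (difference 0.60, SE 0.33, adjusted p = 0.204). The high signal of CD34+ array 1 on the brightest probe set was not seen on 1421105_at, where that array had 6.51 and CD34+ array 2 was the highest, and on 1421106_at it had 7.69, no higher than CD34- array 4. Over the 6 within-gene pairs of tested member probe sets, the lowest exact two-sided permutation p was that of 1434070_at against 1421106_at (0.856, exact p = 0.0519, adjusted p = 0.312, n = 5 and 6), and 5 and 6 arrays can give no p below 0.00433. No pair was therefore shown to differ in its response.

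**Figure D2:**
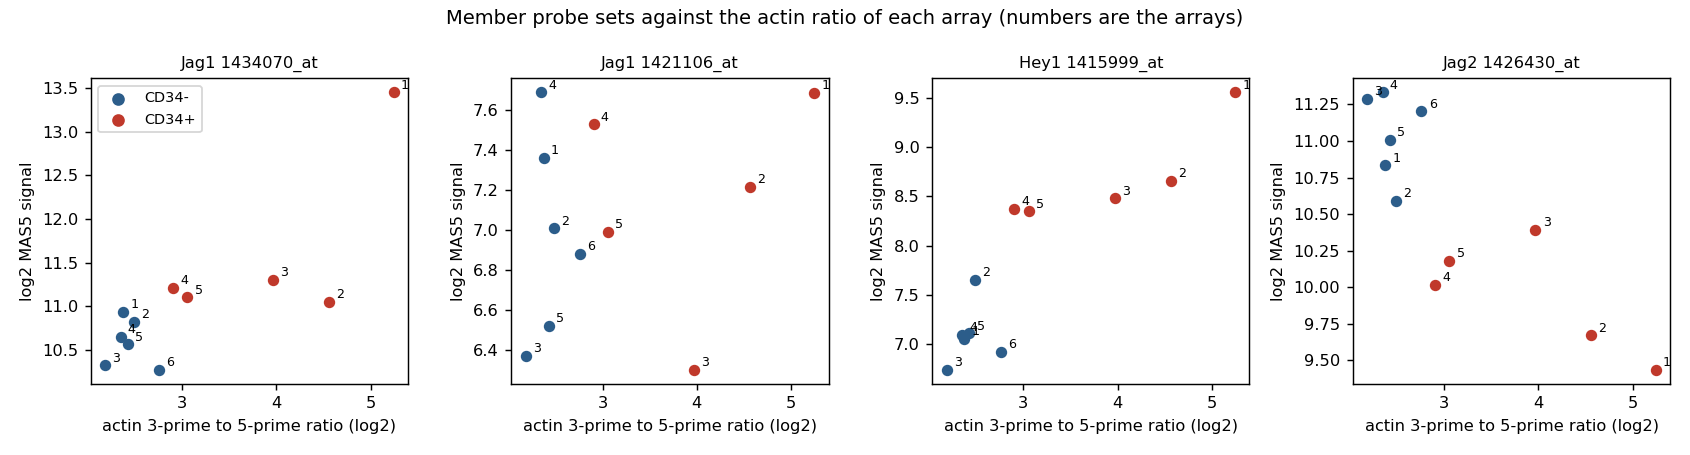
Log2 MAS5 signal (y axis) of 4 member probe sets against the log2 ratio of the 3-prime to the 5-prime actin control probe set (x axis) on each array, with array numbers beside the points, CD34- in blue and CD34+ in red. CD34+ arrays 4 and 5, at actin ratios of 2.91 and 3.06, lie above all CD34- arrays for Hey1 and Jag1 1434070_at. They lie below them for Jag2 1426430_at and within their range for Jag1 1421106_at.

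Promoter sequence was taken from RefSeq (GRCm38.p6), which in the table used held entries for 7 of the 10 genes: Dll1, Jag1, Jag2, Notch1, Notch2, Notch3 and Dtx1. The 250 bases before the start were kept, and the 4 windows that lie wholly outside the annotated gene are shown, since they set the ligand genes Dll1 and Jag1 beside 2 receptor genes. Both strands were searched for TGGGAA, the core of the RBPJ motif, and for CACNAG, the N-box bound by Hes proteins, and matches are in capitals.
Dll1 (chr17:15376933-15377182, minus strand): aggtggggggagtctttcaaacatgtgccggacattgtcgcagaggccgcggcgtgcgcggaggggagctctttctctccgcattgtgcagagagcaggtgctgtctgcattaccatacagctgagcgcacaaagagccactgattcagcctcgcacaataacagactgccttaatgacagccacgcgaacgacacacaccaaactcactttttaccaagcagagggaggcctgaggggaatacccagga
Jag1 (chr2:137116521-137116770, minus strand): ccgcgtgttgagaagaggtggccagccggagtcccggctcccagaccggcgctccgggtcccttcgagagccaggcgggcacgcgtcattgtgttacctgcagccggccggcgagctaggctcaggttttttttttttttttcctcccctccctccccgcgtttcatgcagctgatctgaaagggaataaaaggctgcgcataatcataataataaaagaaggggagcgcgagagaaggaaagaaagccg
Notch1 (chr2:26503823-26504072, minus strand): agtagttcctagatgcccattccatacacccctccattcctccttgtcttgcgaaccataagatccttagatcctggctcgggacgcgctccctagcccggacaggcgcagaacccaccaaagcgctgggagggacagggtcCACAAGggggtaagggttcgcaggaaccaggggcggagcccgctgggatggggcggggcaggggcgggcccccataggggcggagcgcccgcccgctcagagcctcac
Notch2 (chr3:98013288-98013537, plus strand): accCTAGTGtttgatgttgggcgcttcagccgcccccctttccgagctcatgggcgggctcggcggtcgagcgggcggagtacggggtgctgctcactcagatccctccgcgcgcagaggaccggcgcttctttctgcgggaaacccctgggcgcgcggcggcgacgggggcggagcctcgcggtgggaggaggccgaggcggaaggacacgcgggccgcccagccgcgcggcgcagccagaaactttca
None of the 4 windows holds TGGGAA, which 21.6% of all 32851 windows of this length hold. The Notch1 and Notch2 windows hold 1 N-box match each, starting 108 and 247 bases before the start, and the Dll1 and Jag1 windows hold none. Of the windows not shown, that of Notch3 holds 2 N-box matches and that of Dtx1 holds 1. Those of Jag2 and of another Dll1 start hold none. No window left unshown holds TGGGAA. An N-box match is found in 36.7% of all windows. The matches are descriptions of letters and not binding sites.

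The receptor genes showed no called difference on any of their 5 tested probe sets. Notch1 codes for the main Notch receptor of keratinocytes. Its brighter probe set, 1418634_at, gave log2 signals of 12.03, 12.75, 13.16, 12.27 and 12.07 on CD34+ arrays 1 to 5 and of 12.60 to 12.85 on CD34- arrays, with a median of 12.76. CD34+ arrays 1, 4 and 5 lay below every CD34- array and CD34+ array 3 above every one, so the CD34+ arrays were far more spread (SD 0.49 against 0.09). The probe set differed by -0.28 (log2, SE 0.18, limma adjusted p = 0.273). Without CD34+ array 3 it was -0.46 (adjusted p = 0.0342), and with CD34+ arrays 4 and 5 alone -0.57 (adjusted p = 0.00619). The dimmer 1418633_at ranged from 9.49 to 10.31 on CD34+ arrays and from 9.82 to 10.16 on CD34- arrays, with CD34+ array 3 again the highest (difference -0.23, SE 0.16, adjusted p = 0.308).

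Notch2, another receptor gene, had log2 signals of 11.89, 12.09, 11.96, 11.84 and 11.71 on CD34+ arrays and 11.62 to 12.30 on CD34- arrays with 1455556_at. The groups lay within the same range. The probe set differed by 0.02 (log2, SE 0.13, limma adjusted p = 0.91), with a 95% interval of -0.25 to 0.30. Its other probe set, 1451889_at, was under the brightness filter and was not tested; it lay between 5.00 and 7.02 on CD34+ arrays and between 3.60 and 6.26 on CD34- arrays. Notch3, a receptor gene also known from mural cells of vessels, had signals of 10.63, 11.52, 10.84, 11.00 and 10.66 on CD34+ arrays and 10.36 to 11.29 on CD34- arrays with 1421965_s_at. Its log2 difference was 0.03 (SE 0.20, adjusted p = 0.93), with a 95% interval of -0.39 to 0.45. The dimmer 1421964_at differed by -0.02 (SE 0.34, adjusted p = 0.969), with a wider interval of -0.75 to 0.70.

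**Figure D3:**
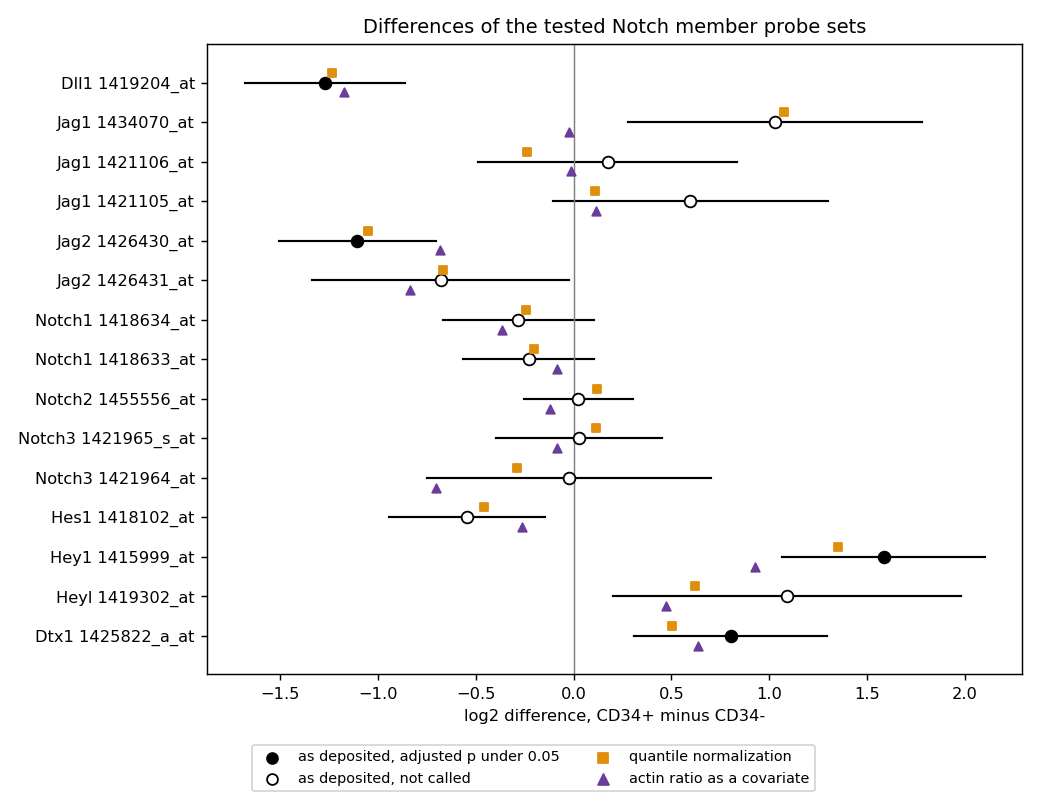
Log2 difference between CD34+ (5 arrays) and CD34- (6 arrays) for the 15 tested member probe sets (circles, with 95% intervals as lines), filled where the adjusted p is under 0.05; squares give the difference after quantile normalization and triangles that from the model holding the actin ratio. The triangle of Jag1 1434070_at lies at -0.02 against 1.03 as deposited, and that of Dll1 at -1.17 against -1.27. No member was called with the actin ratio in the model.

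The target genes Hes1 and Hey1 code for repressors of the basic helix-loop-helix class, and they lay on opposite sides of 0. Hey1 (1415999_at) had log2 signals of 9.55, 8.66, 8.48, 8.38 and 8.35 on CD34+ arrays 1 to 5. In CD34- cells it ranged from 6.74 to 7.66, with a median of 7.08. All CD34+ arrays lay above all CD34- arrays. The means were 8.68 ± 0.50 (SD, n = 5) and 7.10 ± 0.31 (SD, n = 6), a log2 difference of 1.59 (SE 0.24, limma adjusted p = 8.08e-04). With any 1 array left out the call was kept and the difference was 1.37 to 1.70. It was 1.35 after quantile normalization (adjusted p = 0.00347), 0.93 once the actin ratio entered the model (adjusted p = 0.224) and 1.26 with CD34+ arrays 4 and 5 alone (adjusted p = 0.00712).

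Hes1 (1418102_at) had log2 signals of 10.36, 10.71, 11.31, 10.87 and 10.76 on CD34+ arrays and 10.93 to 11.90 on CD34- arrays, with a median of 11.30. CD34+ array 3 lay inside the CD34- range and the other CD34+ arrays lay below it. The probe set differed by -0.54 (log2, SE 0.19, limma adjusted p = 0.0515), which just missed the threshold, and 9 of 26 alternative settings put it under the threshold (adjusted p from 0.00301 to 0.742). Among these was the fit with 1 probe set a gene, with an adjusted p of 0.0463. Jag1 1434070_at had 0.0462 there, and the cause of these changes was not tested. Once the actin ratio entered the model Hes1 differed by -0.26 (adjusted p = 0.742), and with CD34+ arrays 4 and 5 alone by -0.53 (adjusted p = 0.109).

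Heyl, a further member of the Hey group of repressors, had 3 probe sets, of which 1 was bright enough to be tested. That one, 1419302_at, had signals of 7.74, 7.21, 7.28, 6.83 and 6.57 on CD34+ arrays and 4.31 to 6.80 on CD34- arrays, with a median of 6.19. CD34+ array 5 lay inside the CD34- range. A log2 difference of 1.09 was found (SE 0.42, limma adjusted p = 0.0738), which was not called; it was 0.75 without CD34- array 5, the lowest, 0.62 after quantile normalization, 0.47 with the actin ratio in the model (adjusted p = 0.801) and 0.66 with CD34+ arrays 4 and 5 alone (adjusted p = 0.456). Its mean on CD34- arrays (6.04) lay just under the lowest mean tested (6.06), so it passed the filter through the CD34+ arrays. The 2 dim probe sets, 1419303_at and 1438886_at, lay under the 40th percentile of every array and were not tested; their mean log2 signals were 4.00 and 3.89 on CD34+ arrays and 3.28 and 3.09 on CD34- arrays.

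Dtx1 (1425822_a_at) had log2 signals of 8.09, 8.28, 7.71, 8.04 and 7.63 on CD34+ arrays and 6.60 to 7.55 on CD34- arrays, with a median of 7.27. The groups did not overlap, though CD34+ array 5 and CD34- array 1 lay close together. CD34+ minus CD34- came to 0.80 (log2, SE 0.23, limma adjusted p = 0.0263). The call was lost without CD34+ array 2 (adjusted p = 0.054), CD34- array 3 (0.0585) or CD34- array 6 (0.0554), without CD34+ arrays 1 and 2 (0.65, adjusted p = 0.106), with CD34+ arrays 4 and 5 alone (0.69, adjusted p = 0.145), with the replicate number as a block (0.69, adjusted p = 0.0742) after quantile normalization (0.50, adjusted p = 0.12), with equal medians (0.32, adjusted p = 0.241) and with the actin ratio in the model (0.64, adjusted p = 0.499). The dim probe set 1458643_at, under the 40th percentile on every array, was not tested.

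**Figure D4:**
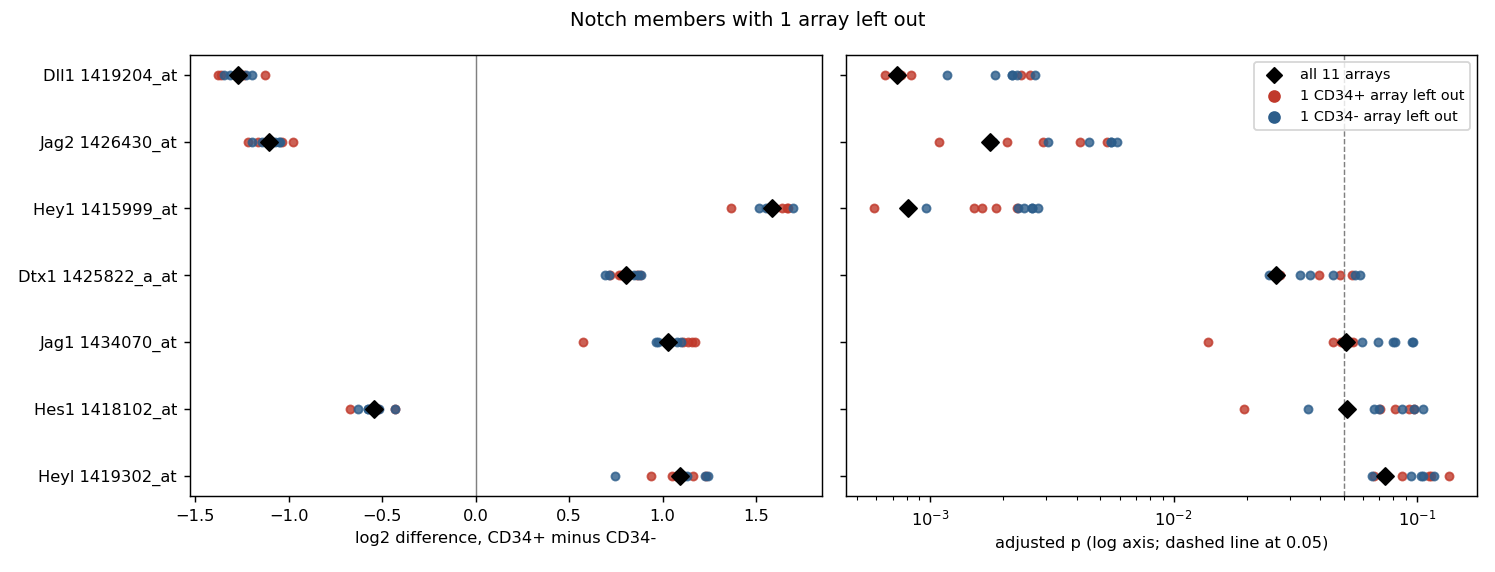
Log2 difference (left) and adjusted p on a log axis with a dashed line at 0.05 (right) of 7 member probe sets with all 11 arrays (diamonds), with 1 CD34+ array left out (red) and with 1 CD34- array left out (blue). Dll1, Jag2 1426430_at and Hey1 stay under 0.05 in each fit shown, and Jag1 1434070_at, Hes1 and Dtx1 fall on both sides.

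Genes listed as markers of other cell types moved with the groups, and their part in these differences was not tested. Over all tested genes, by their brightest probe set, 11.6% were called higher and 10.5% lower. Of 8 fibroblast and dermal papilla markers 4 were tested, and Col1a2, Dcn and Pdgfra were called higher in CD34+ cells. So was Col3a1, which passed the brightness filter only through the group where it is high (mean 8.42 against 4.25). Col1a1, Lum, Dpt and Corin of this list were under the brightness filter. The summed linear signal of the 8 was 3211 to 8709 on CD34+ arrays and 545 to 924 on CD34- arrays; the brightest were Col1a2, a collagen gene, and Dcn, a proteoglycan gene. Of 7 mural and smooth muscle markers, cells where Notch3 and Heyl are known to be expressed, 3 were tested and 2 called higher, with a summed signal of 1389 to 4821 against 785 to 1108, led by Cspg4 and Acta2. Pdgfrb, Myh11, Tagln and Des of that list were under the brightness filter. Of 7 endothelial markers only Kdr was bright enough to be tested and it was not called, and the sums were 250 to 547 against 183 to 251. Cdh5, Tie1 and Tek were under the 40th percentile on every array. Of 8 T cell markers 6 of the 7 tested were called lower, with sums of 688 to 2907 against 4209 to 7150, led by Ptprc and Thy1. Cd3d was under the brightness filter, and Cd7, among the 6, passed it only through the CD34- arrays. The remaining tested marker, Il2rb, went the other way without a call (1.23, limma adjusted p = 0.0881). Of 8 antigen presenting and myeloid markers 5 were called higher, with sums of 5784 to 14929 against 3878 to 6595, led by H2-Aa and Csf1r.

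Among keratinocyte lists, 1 of 5 basal epidermal markers was called lower and none higher (sums of 79784 to 98321 on CD34+ and 86490 to 114033 on CD34- arrays, led by Krt5 and Col17a1). Of 6 suprabasal markers 2 were called higher (80524 to 128912 against 64151 to 85742, led by Krt10 and Sbsn), and Krt1, an early marker of differentiation, differed by -0.82 without passing the test (adjusted p = 0.0543). Of 10 hair shaft and inner root sheath markers 8 were tested, of which 2, Gata3 and Foxn1, were called lower. Hoxc13, which passed the filter only through the CD34+ arrays, was called higher. The sums were 5083 to 8138 against 8610 to 10903, led by Gata3 and Foxn1. Every other marker of this list had a higher mean in CD34+ cells, by 0.35 (log2, Tchh) to 2.03 (Hoxc13). These sums therefore do not describe the list as a whole. None of 5 sebaceous gland markers was called (12097 to 30507 against 19620 to 25797, led by Scd1 and Fasn). Of 6 melanocyte markers 1 was called higher and 1 lower (7702 to 13783 against 5334 to 26061, led by Dct and Mitf). Of the bulge markers the brightest were Krt15, which was not called (0.47, limma adjusted p = 0.0531), and Itga6, which was called lower (-0.53, adjusted p = 0.00273). The sums were 53874 to 99592 against 40570 to 53027. They rest mostly on Krt15 and do not describe the bulge markers called higher.

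Of 60 further genes of the pathway, 55 were measured and 44 tested, each by its brightest probe set. Of these 2 were called higher and 5 lower. Among all genes represented in this way 11.6% were called higher, 10.5% lower and 22.1% in either direction, and the share of the 44 called, 15.9%, lies below that. The median log2 difference was -0.11 over the 44 and 0.02 over all 11891 genes. These genes have 33 further tested probe sets, of which 4 were called higher and 5 lower. These 9 of 33 stand against 20.7% called over all tested probe sets, which is also the background for the further probe sets of each group below. None of the 7 calls by the brightest probe set was kept once the actin ratio entered the model.

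Receptors are cut by surface proteases and then by gamma-secretase. By their brightest probe sets none of 8 tested genes of receptor processing was called, among them Adam10, which codes for the protease that cuts the bound receptor outside the cell (0.17, SE 0.18, adjusted p = 0.526), and Ncstn, a subunit of gamma-secretase (0.05, SE 0.23, adjusted p = 0.904). Their median difference was 0.05. Of 7 other tested probe sets of this group 3 did pass: Adam10 1450105_at (-1.88, adjusted p = 0.0328), Adam17 1421859_at (-0.85, adjusted p = 0.0336) and Aph1a 1424980_s_at (-1.24, adjusted p = 0.00131), all lower in CD34+ cells and chosen after their values were seen. Of 5 tested glycosyltransferase genes, whose products attach sugars to the receptors, Eogt was called lower (-0.60, SE 0.20, adjusted p = 0.0434). Its call was lost after quantile normalization (adjusted p = 0.0661) and without any 1 of 8 single arrays. Of its other probe sets 1433671_at was called lower too (-0.94, adjusted p = 0.0222) and 1434492_at was not (-0.11, adjusted p = 0.815).

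In the nuclear complex Rbpj, the DNA-binding partner of the cut receptor, did not differ beyond its error (-0.10, SE 0.15, adjusted p = 0.654). Of the 13 tested genes of this group, 1 rose and 1 fell by its brightest probe set. Ctbp2, a corepressor gene, ranged from 9.39 to 10.89 on CD34+ arrays and from 8.18 to 8.92 on CD34- arrays (difference 1.32, SE 0.25, adjusted p = 0.00304), and its other probe set was called too (0.91, adjusted p = 0.00937). With the actin ratio in the model the difference was 0.94 (adjusted p = 0.319). Tle3, which codes for a Groucho corepressor that Hes proteins recruit, ranged from 9.60 to 10.66 on CD34+ arrays and from 11.13 to 11.56 on CD34- arrays (difference -1.07, SE 0.18, adjusted p = 0.00148). Of its other tested probe sets, 1 differed by -0.97 (adjusted p = 0.249) and the other by -0.44 (adjusted p = 0.398), without a call, and the actin ratio in the model gave -0.88 for the brightest (adjusted p = 0.186). Among 13 other tested probe sets of the group 4 were called, all higher: that of Ctbp2 and those of the corepressor genes Tle1 (1434033_at, 0.99, adjusted p = 0.00146) and Tle4 (1430384_at, 1.01, adjusted p = 0.0049) and of the acetyltransferase gene Kat2b (1457809_at, 0.81, adjusted p = 0.0101).

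Of 13 tested genes of endocytosis, ubiquitin ligases and inhibitors, 1 was called higher and 2 lower. Numb, an inhibitor of Notch receptors, ranged from 10.56 to 10.92 on CD34+ arrays and from 11.15 to 11.53 on CD34- arrays (difference -0.60, SE 0.12, adjusted p = 0.00371), and it differed by -0.49 with the actin ratio in the model (adjusted p = 0.257). Neurl1b, whose product acts in the uptake of ligands, differed by -0.93 (SE 0.22, adjusted p = 0.0108). Its difference was -0.14 with the actin ratio in the model (adjusted p = 0.84), -0.60 if CD34+ arrays 1 and 2 were left out (adjusted p = 0.0571) and -0.37 with CD34+ arrays 4 and 5 alone (adjusted p = 0.196). The call of Neurl1a (1.25, SE 0.36, adjusted p = 0.0268) rests on a gene that passed the brightness filter only through the CD34+ arrays (mean 6.82 against 5.57). It was lost after quantile normalization (0.75, adjusted p = 0.176), with the replicate block (adjusted p = 0.0602) and without CD34- array 2, 4 or 6 (adjusted p = 0.0535, 0.0509 and 0.0524). Of 9 other tested probe sets of this group 1 was called, that of the Deltex gene Dtx2 (1421720_a_at, -0.60, adjusted p = 0.027). Nrarp, a target gene that feeds back on the receptors, had a difference of -0.26 (SE 0.23, adjusted p = 0.431).

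None of 3 tested further ligand and ligand-like genes was called (Dll4, Dlk1 and Dlk2, with differences of 1.04, 0.78 and -0.69). Of 8 further genes of the Hes and Hey family and its relatives 2 were tested, and Bhlhe40, which codes for a related repressor of the clock and of stress responses, was called lower (-0.85, SE 0.19, adjusted p = 0.00873, and -0.42 with adjusted p = 0.557 once the actin ratio entered the model) while Hes6 was not (0.11, adjusted p = 0.766). Hes2, Hes3, Hes5, Hes7, Hey2 and Bhlhe41 were under the filter, with mean log2 signals from 2.51 to 6.23 in either group.

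**Figure D5:**
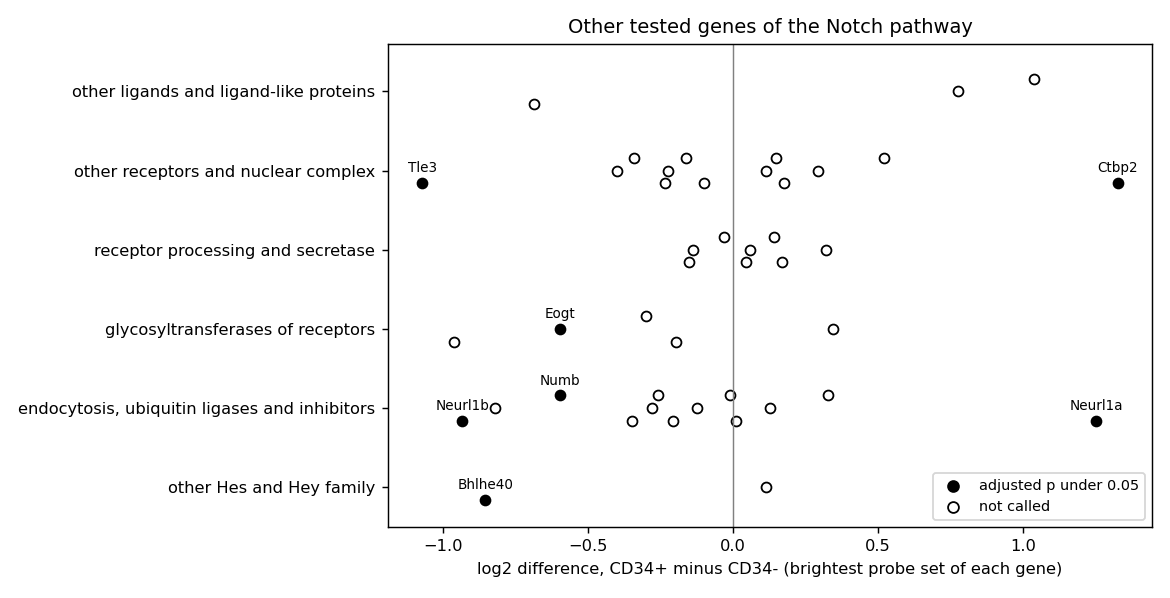
Log2 difference between CD34+ (5 arrays) and CD34- (6 arrays) on the x axis for the 44 tested further genes of the Notch pathway, 1 point a gene by its brightest probe set, in 6 groups; filled points with names have an adjusted p under 0.05. The 2 called higher are Ctbp2 and Neurl1a, and the 8 genes of receptor processing have a median of 0.05 and no call.

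The genes whose pattern over the 11 arrays was nearest to a member's were found by the root mean square difference (log2) between probe sets, each centred on its own mean; they share arrays and groups with the member, and the measure is a description. Nearest to Dll1 were Ipmk (0.169) and Popdc3 (0.205), and nearest to Jag2 were Mthfd1 (0.161), a gene of folate metabolism, and Dnajc9 (0.163). Nearest to Jag1 1434070_at were Dennd5a (0.165) and Rabep1 (0.218), and nearest to Hey1 were Serping1 (0.234), the gene of the C1 inhibitor, and Mertk (0.25), a receptor kinase gene. Hes1 lay nearest to Cab39l (0.16) and Nfix (0.162), Dtx1 to Sri (0.172) and Hhat (0.182), and Heyl, the member with the least close neighbours, to Dbndd2 (0.312) and Tspy-ps (0.322). The receptor genes lay nearest to Mcoln1 (0.117) and Rrp1b (0.132) for Notch1, Calcoco1 (0.087) and Wdfy3 (0.109) for Notch2, and Mtr (0.112) and Dag1 (0.149) for Notch3.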

How the data were processed

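Total RNA of 5 CD34+ and 6 CD34- samples was labelled with biotin and measured on single-channel Affymetrix arrays. The authors deposited 1 log2 value per probe set and array; the submitters' processing notes name MAS5, with no version. That the scale is log2 follows from the values, since the linear mean after trimming 2% from each end was 500.002 to 500.004 on all 11 arrays. No detection calls were used, so a low value is called dim. Precision is limited by the number of arrays (median SE of a difference 0.216).

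Gene symbols are those of the platform annotation. Probe sets with 1 symbol (34945; 932 had several and 9160 non-control probe sets none) were ranked by mean log2 value, the dimmest 40% were left out, and 20967 were tested one by one with limma 3.58.1 in R 4.3.3 (linear model, empirical Bayes with an intensity trend, Benjamini-Hochberg over all tested). For further pathway genes and markers the brightest probe set stood for the gene. The fit was tested on simulated data, with 50 changed probe sets at each size. It recovered 15 changes of 1.5-fold, 24 of 2-fold, 45 of 4-fold and 50 of 8-fold, with 12 false calls. A probe set that was not called may thus still differ. Far fewer probe sets were changed there than the 4344 of 20967 called in these data, and the simulated noise was independent between probe sets. The recovered shares therefore need not hold for this comparison.

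Named were all member probe sets, Cd34, up to 3 called genes per direction of each pathway list, the 2 brightest markers of each cell type list and the 2 nearest patterns of each member; others were chosen after seeing their values. Members and lists were chosen with earlier results of these data known. Of the further pathway genes, 5 were not analysed here, as was 1 basal marker. Replicate numbers were checked for pairing: deviations of same-numbered arrays correlated at 0.017 to 0.18, so they were not used as pairs.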

Additional observations from a re-analysis of the deposited data

Results flagged for a closer look

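Within groups, single arrays stood far from the rest in 3 of 38 sets of member values (19 probe sets in 2 groups), where chance alone gives about 1 in 20. On CD34+ array 1 Jag1 1434070_at had a log2 signal of 13.45 against 11.06 to 11.31 on the other CD34+ arrays, and Hey1 1415999_at had 9.55 against 8.35 to 8.66. That array also had the highest actin ratio (5.25), and the part of this in its values was not tested. On CD34- array 5 Heyl 1419302_at had 4.31 against 5.99 to 6.80.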

How the results depend on the processing

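Dll1, Jag2 1426430_at and Hey1 kept their direction under every alternative run on them and were called in all but the fit with the actin ratio as a covariate, which left 124 probe sets called higher and 25 lower in all and no Notch member or further pathway gene in either direction (0 each). Leaving out 1 array gave 1597 to 2345 probe sets higher and 1360 to 2235 lower, 1 to 3 members higher and 2 to 5 lower, and 1 to 2 further pathway genes higher and 4 to 6 lower. Quantile normalization shifted the median difference of all tested probe sets by -0.12 and gave 1386 higher and 2206 lower (38.6% of calls higher), and 1 further pathway gene higher. Equal medians gave 675 higher and 8239 lower (7.57% higher), with 1 member higher and 7 lower and 1 and 23 further pathway genes, and turned Notch2 1455556_at to -0.46 (adjusted p = 0.0181). The array medians as deposited, 6.36 to 6.51 in the CD34- and 6.71 to 7.23 in the CD34+ group, lay above the lowest mean tested (6.06). Leaving out the dimmest 60% gave 1431 probe sets, 1 member and 1 further gene higher. The median difference of the tested probe sets was 0.21 with no filter on low values and -0.06 with the dimmest 60% left out. With values under the 40th percentile raised to it 4 members were higher, and array weights gave 4 members lower. With 1 probe set a gene 1481 were higher and 1340 lower, of 11891 tested. Without CD34+ arrays 1 and 2, 1520 were higher and 1361 lower, with 1 further gene higher. Without CD34+ arrays 1, 2 and 3, chosen after seeing the data, 1445 were higher and 1364 lower, with 1 member higher, 4 lower and 1 further gene higher. With the replicate block 1610 were higher and 1424 lower, 2 members higher and 3 lower, and 1 further gene higher; the block put Jag1 1434070_at (adjusted p = 0.0467) and Hes1 (adjusted p = 0.0359) under the threshold, and no array of CD34+ cells correlated best with its own number. Where not stated, the cause of a change was not tested.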
